A study of Dirofilaria immitis with 12 samples.

Results

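The medium of cultured Missouri L4 larvae of the heartworm *Dirofilaria immitis* was set against that of Missouri L3 larvae. The members were all named mature sequences with a count in at least 1 of the 6 Missouri libraries, with lines of the same name summed, which gave 139 of the 182 miRNAs counted in the series of 12 libraries. There were 3 libraries of L4 medium, collected on culture days 8 and 12, and 3 of L3 medium, collected on days 2 and 4. The Missouri-2005 strain is susceptible to macrocyclic lactones. The other 6 libraries are L4 and L3 medium of Yazoo-2013, a resistant strain, which entered the fits only to share the estimate of spread and a test of the difference between strains. The L3 were dissected from *Aedes aegypti*, washed, and kept at 37 °C and 5% CO2, and the medium was exchanged every 48 h, when dead larvae were taken out. Both stages came from the same cultures, so stage, time in culture and the loss of larvae cannot be told apart, nor can fewer living larvae and less RNA released by each. Which culture gave which numbered library is not stated, and the p-values measure only the spread between these libraries. The tests treat the libraries as independent, although an L4 and an L3 library may come from the same culture. The table holds miRNAs only, so no marker gene of larvae or of other cells could be checked.

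A miRNA is a short RNA cut from an arm of a hairpin precursor that guides a silencing complex to messenger RNAs, mainly through its seed, bases 2 to 8. Nematodes release miRNAs into the fluid around them, some of them in vesicles. In *C. elegans* the timing of larval development rests on small RNAs that appear in sequence: lin-4 acts early, and let-7 acts in the passage from the last larval stage to the adult. The names follow the nematode in which the sequence is listed (bma for *Brugia malayi*, asu for *Ascaris suum*, ppc for *Pristionchus pacificus*, cbn for *C. brenneri*). A suffix such as R+1 gives bases added at the 3′ end, and PC marks a predicted candidate, whose reads were not matched to a listed precursor. Some candidates are still close to a listed sequence. PC-3p-59172_50 is bma-miR-281-3p_1ss10AG with a further base, and PC-3p-48455_63 differs from asu-miR-81b-3p_1ss18TC in the last base only.

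The sequences on which the stage comparison turned are shown first, with the seed in capitals and T standing for U. The timing miRNAs show that let-7 and its longer form share a seed with miR-84 and none with lin-4.
asu-let-7-5p: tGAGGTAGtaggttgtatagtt
cbn-let-7_R+1: tGAGGTAGtaggttgtatagttt
bma-miR-84-5p: tGAGGTAGtttataaagctgcga
bma-lin-4: tCCCTGAGacctctgctgcga

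The miR-100 family supplied most of the counts. Its abundant members share the seed and differ downstream of it, which allows them to be counted apart.
bma-miR-100a_R+1: aACCCGTAgtttcgaacatgtgt
bma-miR-100b_R+2: aACCCGTAgatccgaacttgtgtt
bma-miR-100d_R+1: tACCCGTAgctccgaatatgtgt
bma-miR-100c_R+1_1ss12CT: aACCCGTAgaattgaaatcgtgt

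The members with the seed of bantam, a growth regulator in flies, and the miRNAs counted in all L4 and in no L3 libraries are shown next, because the results by library refer to them.
bma-miR-81_R+1: tGAGATCAttgtgaaagctatt
asu-miR-81b-3p_1ss18TC: tGAGATCAtgccacatccgtct
PC-3p-1604_3569: tGAGATCAcgttacatccgtct
asu-miR-83-3p_1ss20CT: tAGCACCAtttaaattcagtat
bma-miR-307_1ss22GA: tCACAACCtccttgagtaagcaga
PC-3p-104719_25: aATGGAATggaatgaaatgaaa

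The last set holds the muscle miRNA miR-1, miR-228 and the predicted candidates that were described by library.
ppc-miR-1_R+1: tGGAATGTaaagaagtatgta
bma-miR-228: aATGGCACtagatgaattcacgg
PC-3p-15043_251: aTATGTTTtctgaaataa
PC-5p-7293_584: cCTGAGCAggatgaagcc

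The L4 libraries were deeper, with totals of 112753, 139884.5 and 261543.5 counts, against 12631, 24301 and 2422 counts in the L3 libraries. Values are given on both scales that the table allows. The share is the percentage of a library's total count. The normalized count is the count divided by the authors' size parameter, which was 2.33, 1.67 and 6.03 in L4 and 0.343, 1.02 and 0.186 in L3. Over the 51 members counted in both stages, the median log2 fold change of L4 over L3 was 1.32 on the normalized scale and 0.28 on shares, and the normalized scale set a member higher in L4 by a median of 1.02 (log2). Of all 139 members, 101 lay above 0 on the normalized scale and 92 on shares. For the 63 members counted in L4 only and the 25 counted in L3 only, the sign follows from where they were counted. Of the 51 counted in both stages, 38 lay above 0 on the normalized scale and 29 on shares. L4 library 3 stood apart, since its 4 most abundant miRNAs took 73.3% of its counts, against 87.3% and 94.9% in the other L4 libraries and 83.9% to 90.1% in L3.

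On shares, 1 of the 139 miRNAs passed the test, asu-let-7-5p, which fell in L4 (0.719% called lower and 0% called higher, edgeR's quasi-likelihood test with Benjamini-Hochberg adjusted p under 0.05). By normalized count, 0 of 139 passed in either direction with edgeR (0%), 14 were higher (10.1%) and 6 lower (4.32%) in L4 at an unadjusted p under 0.05, DESeq2 called 0 and limma with a pseudocount of 1 called 3, all higher (bma-lin-4, bma-miR-5360_R-1 and ppc-miR-1_R+1). On shares, 1 was higher (0.719%) and 9 were lower (6.47%) at an unadjusted p under 0.05. Every L4 library lay above every L3 library for 19 miRNAs on the normalized scale (13.7%) and below for 2 (1.44%), whereas on shares 3 lay above (2.16%) and 4 below (2.88%). How many miRNAs lay apart thus depended on the scale. Those below on both scales were asu-let-7-5p and PC-3p-15043_251. Those above on both were asu-miR-83-3p_1ss20CT, bma-miR-307_1ss22GA and PC-3p-104719_25, which were at 0 in every L3 library. Since counts under 5 were almost never listed, a 0 can stand for a share above theirs: with each 0 of the lower stage taken as 5 counts, 0 miRNAs lay above and 4 below on shares, and 14 above and 2 below by normalized count. These numbers also moved with the libraries. On shares they were 33 above and 4 below without L4 library 2, 7 and 7 without L3 library 1, 19 and 7 without L3 library 2, and 5 and 7 without L3 library 3. By normalized count they were 41 above and 2 below without L4 library 2, and 28 and 5 without L3 library 2.

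**Figure D1:**
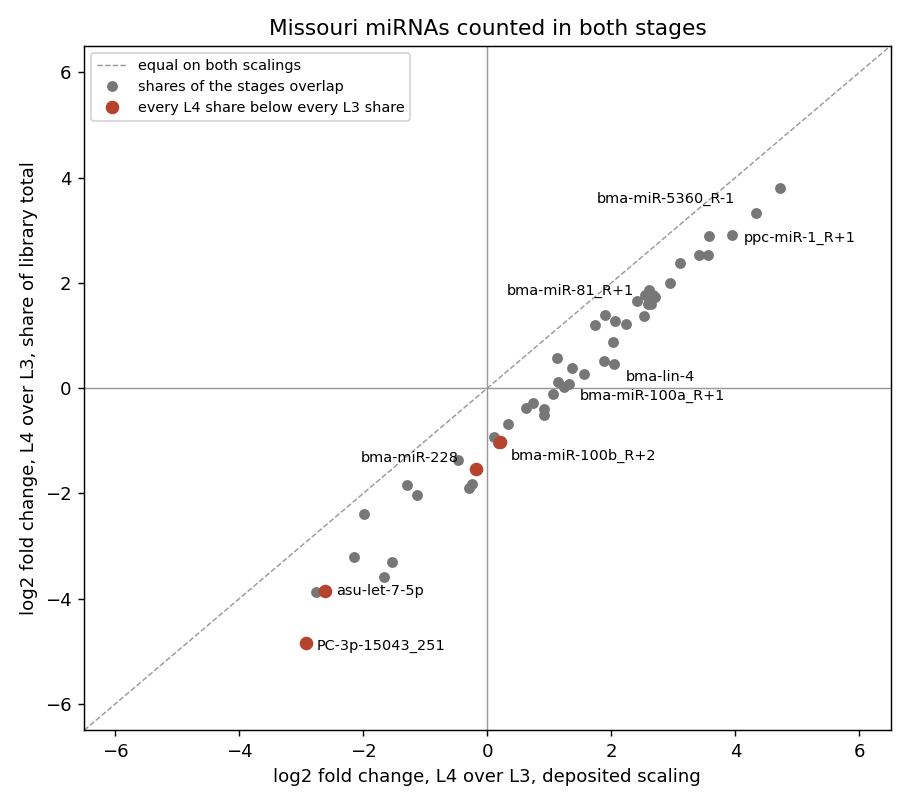
Log2 fold change of L4 over L3 for the 51 Missouri miRNAs counted in both stages, on the deposited scaling (x axis) and as a share of the library total (y axis). Each point is 1 miRNA, the dashed line marks equal values, and red points are the 4 miRNAs whose L4 shares all lay below their L3 shares. The points lie below the dashed line, by a median of 1.02.

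asu-let-7-5p fell in L4 medium as a share of the counts. The L4 libraries held 399, 183 and 366 counts of it, against 287, 845 and 80 counts in the L3 libraries, although the L4 libraries held many more counts in all. Its share was 0.354% (95% exact Clopper-Pearson interval 0.320 to 0.390), 0.131% (0.113 to 0.151) and 0.140% (0.126 to 0.155) in L4. In L3 its share was 2.27% (2.02 to 2.55), 3.48% (3.25 to 3.72) and 3.30% (2.63 to 4.09). The intervals, which cover counting error only, lie far apart, and the stages did not overlap. The log2 fold change of the share was −3.86 (SE 0.96, adjusted p = 0.00817 from edgeR). Its normalized count was 171, 109 and 60.7 in L4, against 837, 830 and 430 in L3, again without overlap, with a log2 fold change of −2.62 (SE 1.03, adjusted p = 0.189 from edgeR). By mean normalized count it ranked 23 in L4 and 5 in L3. On shares the call was lost without L4 library 2 (adjusted p = 0.143 from edgeR), without L4 library 3 (adjusted p = 0.0812) and with only the 6 Missouri libraries in the fit (adjusted p = 0.0875). It passed in 7 of the 11 alternatives, over which its adjusted p ran from 0.00373 to 0.143.

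bma-lin-4 did not pass on either scale with edgeR. Its normalized count was 10252, 22977 and 8385 in L4, against 3229, 3259 and 3564 in L3, so that the L3 libraries were close together and all lay below the L4 libraries. This gave a log2 fold change of 2.05 (SE 0.59, adjusted p = 0.0749 from edgeR). It passed without L4 library 3 (adjusted p = 0.0163) and with limma at pseudocounts of 1 and 0.5 (adjusted p = 0.0318 and 0.0247). With TMM and with the median of ratios, the log2 fold change was 1.00 (adjusted p = 0.522 and 0.349). Its share was 21.2%, 27.5% and 19.3% in L4, against 8.76%, 13.6% and 27.4% in L3. L3 library 3, with the fewest counts, lay within the range of the L4 libraries, and the log2 fold change of the share was 0.45 (SE 0.42, adjusted p = 0.628).

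The ratio of both timing miRNAs within a library depends on no scaling. There were 0.0167, 0.00476 and 0.00724 counts of asu-let-7-5p for each count of bma-lin-4 in the L4 libraries, against 0.259, 0.255 and 0.121 in the L3 libraries. On average the ratio was 24.0 times higher in L3 (log2 difference of L4 minus L3 −4.59, two-sided exact permutation test, p = 0.1, the smallest that 3 against 3 libraries allow, and 0.2 after adjustment over the 10 ratios computed). Each library left out in turn gave −5.09 to −4.18. Summing asu-let-7-5p with cbn-let-7_R+1, which is longer by 1 base, gave −4.59 as well. That longer form was counted 20, 6 and 0 times in L4 and 7, 62 and 0 times in L3. bma-miR-84-5p, whose *C. elegans* relative acts with let-7 in the late larva, was counted 23 times in L4 library 3 and in no other Missouri library.

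**Figure D2:**
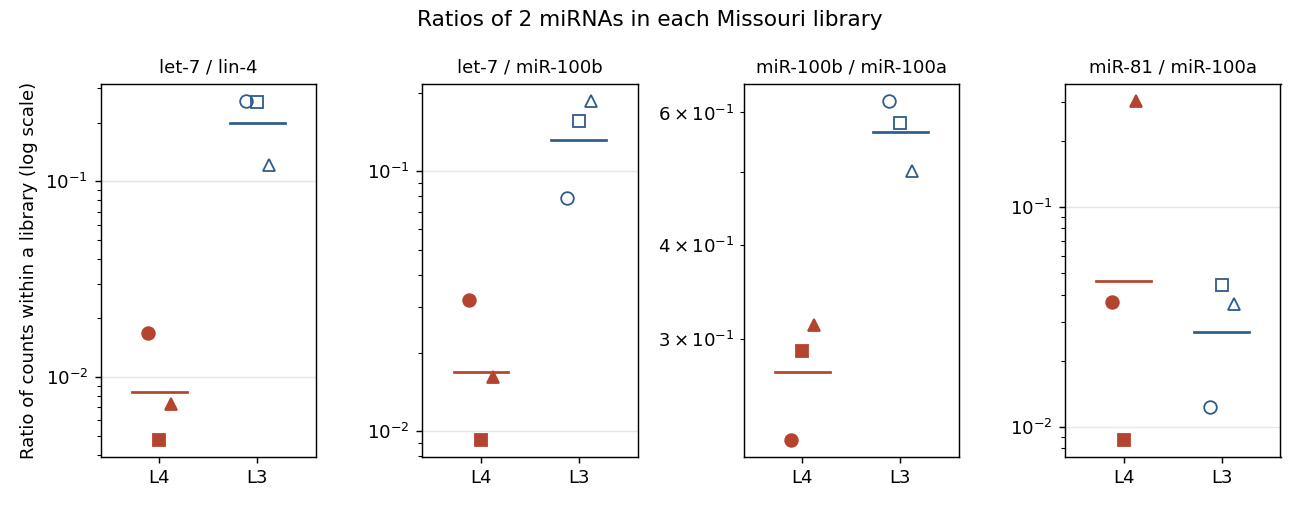
Ratio of the counts of 2 miRNAs in each Missouri library, on log axes, with L4 filled and L3 open (circle, square and triangle for libraries 1, 2 and 3). Lines are geometric means of 3 libraries. The stages do not overlap for let-7 to lin-4, let-7 to miR-100b and miR-100b to miR-100a, and they overlap for miR-81 to miR-100a.

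asu-let-7-5p was also low against nearly every other member counted in all 6 libraries. Of the 14 miRNAs counted in all 6 libraries, 91 pairs can be formed, and the ratio within a library separated the stages for 28 of them (30.8%). The ratio of asu-let-7-5p to its partner was lower in every L4 library for 12 of its 13 partners, the exception being PC-3p-15043_251. PC-3p-15043_251 was lower against 9 of 13. bma-lin-4 was higher in every L4 library against 5 of 13 partners and lower against 0. The ratios of asu-let-7-5p all use the same let-7 counts, so they are not independent of each other or of its share. They are also part of the 28 pairs. All of these ratios were chosen after the values were seen.

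The miR-100 family took 66.9%, 68.2% and 54.6% of the counts in L4, against 82.3%, 72.4% and 57.8% in L3. The stages overlapped (mean difference of L4 minus L3 −7.59 percentage points, two-sided exact permutation test, p = 0.4). All 5 members were counted in both stages. On the normalized scale all 5 lay above 0 and on shares 2, against 38 and 29 of the 51 members counted in both stages. Their medians were 1.06 and −0.10 (log2), against 1.32 and 0.28 over those 51 members, and 0 passed the test in either direction on either scale.

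Within the family the members differed. bma-miR-100a_R+1, the most abundant miRNA in every Missouri library, took 50.0%, 48.7% and 27.6% in L4, against 46.1%, 38.4% and 35.3% in L3. bma-miR-100b_R+2 took 11.0%, 14.1% and 8.63% in L4, against 28.7%, 22.3% and 17.7% in L3. All its L4 shares thus lay below its L3 shares, with a log2 fold change of −1.03 (SE 0.43, adjusted p = 0.286 from edgeR), which did not pass. Its normalized counts overlapped between stages, with 5343, 11795 and 3744 in L4 and 10581, 5336 and 2301 in L3, and a log2 fold change of 0.20 (SE 0.59, adjusted p = 0.789).

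Set against each other, there were 0.221, 0.289 and 0.313 counts of bma-miR-100b_R+2 for each count of bma-miR-100a_R+1 in L4, against 0.622, 0.582 and 0.501 in L3. The ratio was 2.09 times higher in L3 (log2 difference −1.06, two-sided exact permutation test, p = 0.1, and 0.2 after adjustment over 10 ratios), and −1.16 to −0.91 with each library left out in turn. bma-miR-100d_R+1 took 5.00%, 4.65% and 17.8% in L4, against 6.43%, 11.0% and 3.55% in L3, and its stages overlapped. Its high share in L4 library 3 went with the low share of bma-miR-100a_R+1 in the same library. bma-miR-100c_R+1_1ss12CT stayed between 0.644% and 0.808% in L4 and between 0.584% and 1.32% in L3.

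The table places the hairpins of bma-miR-100b_R+2 (bases 1081 to 1171) and asu-let-7-5p (bases 848 to 928) on the minus strand of 1 contig, with 152 bases between them. The hairpins of bma-miR-100d_R+1 (5712 to 5802) and bma-miR-100a_R+1 (6597 to 6687) lie on the plus strand of another contig, 794 bases apart. The genome build of these contigs is not given in the sources used here, and the annotation of other genes there was not used here. The neighbours let-7 and miR-100b were the known miRNAs, together with bma-miR-228, whose shares were lower in every L4 library, but not by the same amount. There were 0.0320, 0.00928 and 0.0162 counts of asu-let-7-5p for each count of bma-miR-100b_R+2 in L4, against 0.0791, 0.156 and 0.187 in L3 (log2 difference −2.97, two-sided exact permutation test, p = 0.1, and 0.2 after adjustment over 10 ratios). bma-miR-71_R+4 and bma-miR-2a_R+1 also shared a contig and strand (3253 bases apart), as did bma-miR-279_R+1 and bma-miR-5841-3p (2812 bases apart).

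**Figure D3:**
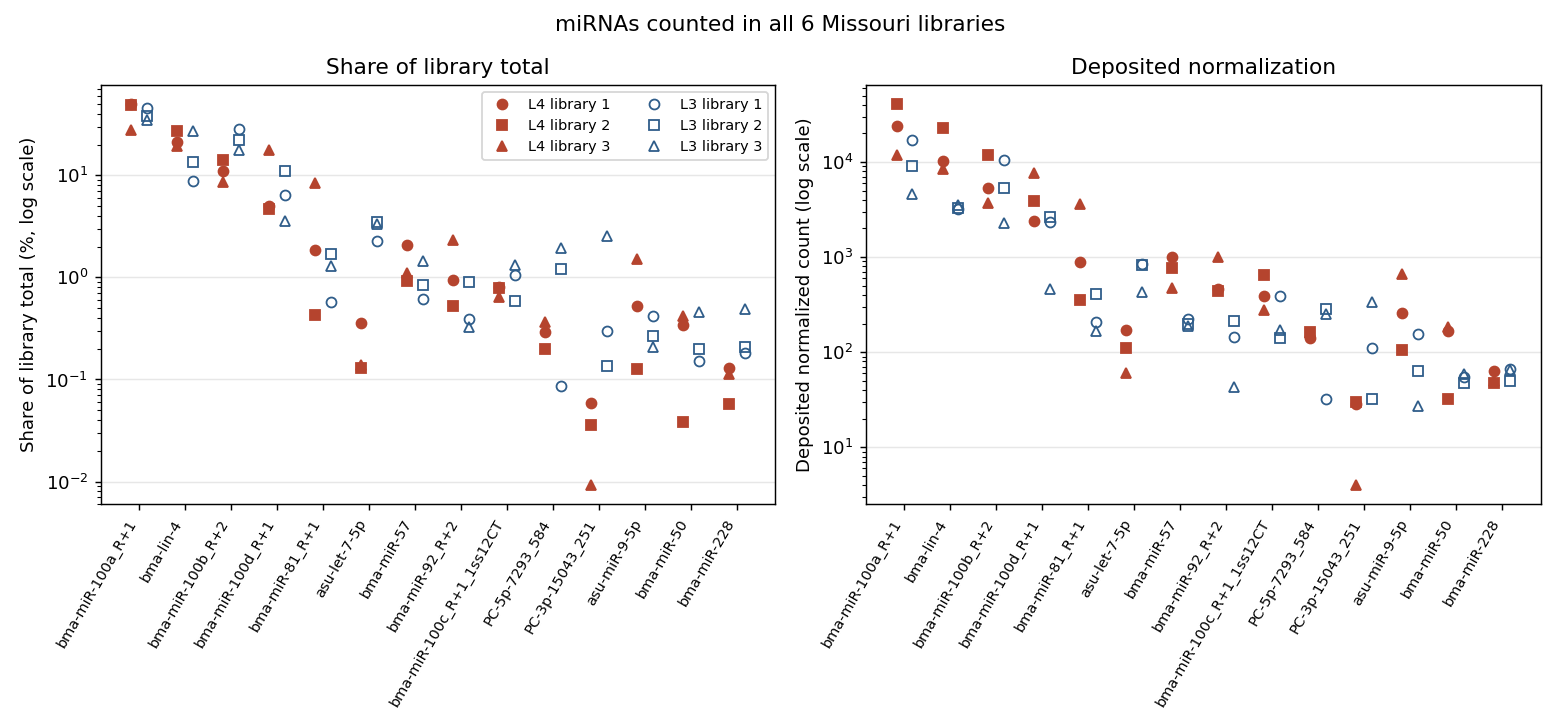
Share of the library total in percent (left) and deposited normalized count (right), both on log axes, for the 14 miRNAs counted in all 6 Missouri libraries, ordered by mean share. Filled symbols are L4 and open symbols L3 libraries. asu-let-7-5p and PC-3p-15043_251 lie lower in L4 in both panels, and bma-miR-100b_R+2 and bma-miR-228 only in the left panel. bma-lin-4, bma-miR-57 and bma-miR-92_R+2 lie higher in L4 only in the right panel.

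bma-miR-81_R+1 and its seed relatives had their high values in 1 library. bma-miR-81_R+1 took 1.85%, 0.425% and 8.42% in L4, against 0.570%, 1.70% and 1.28% in L3. L4 library 3 was the highest and L4 library 2 the lowest of all 6. It had a log2 fold change of 2.64 (SE 0.94, adjusted p = 0.178 from edgeR) on the normalized scale and 1.59 (SE 0.85, adjusted p = 0.428) on shares, where it was −0.06 without L4 library 3. Its ratio to bma-miR-100a_R+1 was 0.0370, 0.00873 and 0.305 in L4, against 0.0124, 0.0442 and 0.0363 in L3 (log2 difference 0.77, two-sided exact permutation test, p = 0.8), and the difference was −0.59 without L4 library 3.

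The relatives followed the same libraries. asu-miR-81b-3p_1ss18TC was counted 291, 85 and 2268 times in L4 and 0, 82 and 0 times in L3. The candidate PC-3p-1604_3569, which has the same seed and ends like asu-miR-81b-3p_1ss18TC, was counted 225, 34 and 2787 times in L4 and 9, 21 and 0 times in L3. Together the 4 members with this seed took 2.31%, 0.510% and 10.4% in L4, against 0.641%, 2.12% and 1.28% in L3, and 0 of the 4 passed in either direction on either scale.

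bma-miR-57 and bma-miR-92_R+2, a member of the miR-25 and miR-92 family, were counted in all 6 libraries. The normalized count of bma-miR-57 was 1007, 776 and 474 in L4, against 225, 200 and 188 in L3, a log2 fold change of 1.88 (SE 1.02, adjusted p = 0.370 from edgeR). That of bma-miR-92_R+2 was 460, 435 and 1011 in L4, against 146, 213 and 43.0 in L3, a log2 fold change of 2.24 (SE 1.08, adjusted p = 0.314). Neither passed, and the shares of both overlapped between stages.

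ppc-miR-1_R+1, the muscle miRNA miR-1, was present in every L4 library and in a single L3 library. It was counted 444, 214 and 3293 times in L4, against 0, 53 and 0 times in L3. Its normalized count was 191, 128 and 546 in L4, against 0, 52.1 and 0 in L3, with a log2 fold change of 3.94 (SE 1.39, adjusted p = 0.178 from edgeR). All L4 libraries lay above L3 library 2. That library alone held ppc-miR-1_R+1 in L3. Without that library the adjusted p was 0.00499, but all L3 counts were then removed. As a share it was 0.394%, 0.153% and 1.26% in L4, against 0%, 0.218% and 0% in L3, with a log2 fold change of 2.91 (SE 1.40, adjusted p = 0.428). Counts under 5 were almost never listed, so the 0 in L3 library 3 leaves room for a share of up to 0.206%, the share of 5 counts there, which is more than the share in L4 library 2.

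Of the 11 muscle and nerve miRNAs, which include it, 9 lay above 0 on the normalized scale and 8 on shares, against 101 and 92 of all 139. Of the 6 counted in both stages, 4 and 3 lay above 0, against 38 and 29 of 51. None passed in either direction. At an unadjusted p under 0.05, 2 were higher by normalized count (ppc-miR-1_R+1 and bma-miR-9-3p), against 14 of all 139 (10.1%). On shares 1 was higher (ppc-miR-1_R+1), the only one of all 139 (0.719%). The medians of those 6 were 1.48 and 0.38, against 1.32 and 0.28 over the 51 members counted in both stages. bma-miR-9-3p, from the other arm of the miR-9 hairpin, was counted 50, 18 and 831 times in L4, against 0, 5 and 0 times in L3 (log2 fold change 4.72 on the normalized scale, SE 2.33, adjusted p = 0.314 from edgeR). Like miR-1 it was present in every L4 library and in L3 library 2 alone. asu-miR-9-5p, a neural miRNA in vertebrates, took 0.530%, 0.126% and 1.53% in L4, against 0.420%, 0.267% and 0.206% in L3. bma-miR-7_R+1_1ss10TA, related to a miRNA of neural and endocrine cells, took 0.236%, 0% and 0.0413% in L4, against 1.40%, 0.0453% and 0% in L3, and ranked 29 in L4 and 10 in L3 through 1 library of L3. bma-miR-133_L+1, a muscle miRNA in other animals, was counted 92, 6 and 192 times in L4 and 5, 0 and 5 times in L3. bma-miR-124_R-1, a neuronal miRNA, was counted 71, 17 and 47 times in L4 and 41, 0 and 0 times in L3.

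Of the 13 members that regulate lifespan or stress responses in *C. elegans*, 10 lay above 0 on the normalized scale and 9 on shares, against 101 and 92 of all 139. Of the 8 counted in both stages, 5 and 4 lay above 0, against 38 and 29 of 51. In either direction 0 passed. At an unadjusted p under 0.05, 4 were higher by normalized count, against 14 of all 139 (10.1%). They were bma-lin-4, bma-miR-71_R+4, bma-miR-239-5p and asu-miR-83-3p_1ss20CT, the last of which was at 0 in every L3 library. On shares 0 were higher, against 1 of all 139 (0.719%). The medians of those 8 were 0.96 and −0.30, lower than those of the 51 members counted in both stages. bma-miR-71_R+4, which supports long life in *C. elegans*, had normalized counts of 174, 206 and 487 in L4, against 49.6, 83.5 and 0 in L3 (log2 fold change 2.67, SE 1.30, adjusted p = 0.314 from edgeR). bma-miR-239-5p had 227, 89.7 and 627 in L4, against 20.4, 64.9 and 0 in L3 (log2 fold change 3.41, SE 1.34, adjusted p = 0.189). In both, every L4 library lay above every L3 library by normalized count, whereas their shares overlapped between stages.

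bma-miR-228 was lower in every L4 library, but on shares only. Its share was 0.130%, 0.0572% and 0.114% in L4, against 0.182%, 0.210% and 0.495% in L3, without overlap (log2 fold change −1.53, SE 1.63, adjusted p = 0.628 from edgeR). Its normalized counts were nearly level, with 63.1, 47.9 and 49.4 in L4 and 67.1, 50.1 and 64.5 in L3. bma-miR-34, a stress miRNA in *C. elegans*, took 0.0585%, 0.0122% and 0.177% in L4, against 0%, 0.309% and 0.206% in L3.

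Of the developmental timing list, 3 of 6 members lay above 0 on each scale, against 101 and 92 of all 139. Of the 4 counted in both stages, 2 lay above 0 on each scale, against 38 and 29 of 51. On shares 1 passed as lower, asu-let-7-5p, and 0 as higher. By normalized count 0 passed. The medians of the 4 counted in both stages were −0.44 and −1.70, against 1.32 and 0.28 over the 51 members counted in both stages. Both let-7 forms lay below 0 and both lin-4 arms above 0 on each scale, so that a median of these members lies between a let-7 and a lin-4 value.

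bma-miR-5360_R-1 and bma-miR-279_R+1 were among the 19 miRNAs with higher normalized counts in every L4 library. bma-miR-5360_R-1 had 132, 51.4 and 234 in L4, against 0, 17.7 and 0 in L3 (log2 fold change 4.33, SE 1.69, adjusted p = 0.189 from edgeR). It passed without L3 library 2 (adjusted p = 0.0425), the only L3 library that held it, so all its L3 counts were then removed. bma-miR-279_R+1, whose *Drosophila* relative acts in the nervous system, had 105, 50.2 and 298 in L4, against 29.2, 21.6 and 0 in L3 (log2 fold change 3.10, SE 1.49, adjusted p = 0.314). bma-miR-5866 was counted 88, 46 and 193 times in L4 and 0, 15 and 0 times in L3, and hpo-miR-10078-5p_1ss10TC was counted 15, 12 and 62 times in L4 and 0, 5 and 0 times in L3. Higher in every L4 library by normalized count were also bma-miR-9-3p, bma-miR-86, bma-miR-252, asu-miR-993-3p, bma-miR-5364 and PC-3p-5433_825. With a 0 taken as 5 counts, bma-miR-9-3p and hpo-miR-10078-5p_1ss10TC were no longer among them, and as shares the stages overlapped for all of these. The counts of bma-miR-87a_R+1 were 36, 9 and 359 in L4 and 0, 9 and 0 in L3, and its stages overlapped on both scales.

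Of the second arms of the hairpins, that of miR-9 was counted most. bma-miR-9-3p made up 7.72%, 9.28% and 17.2% of the counts of both arms in the L4 libraries, and 0%, 7.14% and 0% in L3, where both arms together had 53, 70 and 5 counts. The other strand of lin-4, asu-lin-4-3p_2ss5TC21GT, made up 0.0836%, 0.0442% and 0.363% of the lin-4 counts in L4, against 0.450%, 0% and 0% in L3. asu-let-7-3p_L+3R-1 was counted 6 times in L3 library 1 and in no other Missouri library. The low let-7 of L4 medium was thus measured on the abundant arm alone.

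PC-3p-15043_251, an 18-base candidate, was lower in every L4 library on both scales. It was counted 66, 50 and 24 times in L4 and 38, 33 and 62 times in L3. Its share was 0.0585%, 0.0357% and 0.00918% in L4, against 0.301%, 0.136% and 2.56% in L3 (log2 fold change −4.83, SE 1.49, adjusted p = 0.0561 from edgeR), which did not pass. It passed without L3 library 1 (adjusted p = 0.0295) and without L3 library 2 (0.0134). The high value came from L3 library 3, without which the log2 fold change of the share was −2.66 (adjusted p = 0.597). With each L4 library left out, the adjusted p was 0.271 to 0.374. By normalized count it had a log2 fold change of −2.93 (SE 1.46, adjusted p = 0.314).

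PC-5p-7293_584 took 0.294%, 0.197% and 0.368% in L4, against 0.0871%, 1.21% and 1.94% in L3, so that L3 library 1 lay below and the other L3 libraries above all L4 libraries (log2 fold change −1.90, SE 1.10, adjusted p = 0.428 from edgeR). PC-3p-5433_825 was counted 511, 435 and 1379 times in L4 and 40, 204.5 and 0 times in L3. PC-3p-5191_869, PC-3p-5671_782 and PC-3p-30535_109 share their seed and differ in length. PC-3p-5191_869 was counted 310, 273 and 430 times in L4 and 38, 110 and 0 times in L3, and the longer forms less often in each of these libraries that held them.

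Known miRNAs and candidates differed in how often they recurred. Of 72 known miRNAs, 41 were counted in both stages, 29 in L4 only and 2 in L3 only. Of 67 candidates, 10 were counted in both stages, 34 in L4 only and 23 in L3 only, and 49 were counted in a single library. The candidates had a median length of 20 bases, against 22 for the known miRNAs, and 39 of 67 were shorter than 21 bases, against 2 of 72 known miRNAs. Those counted in L4 only had a median of 20 bases with 65.9% A and T and reached 74 counts in a library. Those counted in L3 only had a median of 19 bases with 65.0% A and T and reached 12 counts, against a median of 54.5% A and T in the known miRNAs. Among the 10 smallest unadjusted p on shares were 6 of the candidates counted in L3 only, all with counts in L3 library 3, the shallowest. PC-3p-115272_22 had 12 counts there (adjusted p = 0.0503 from edgeR) and passed without L3 library 1 and without L3 library 2, PC-5p-284478_9 and PC-3p-280581_9 had 9 each, and PC-5p-469589_6 and PC-5p-555057_6 had 6 each. PC-5p-402777_7 had 5 there and 7 in L3 library 1. The predicted hairpins of candidates had a median free energy of −24.1 kcal/mol, against −33.1 kcal/mol for the known miRNAs. The median was −26.5 kcal/mol for candidates counted in L4 only and −21.4 kcal/mol for those counted in L3 only, whereas that of the 10 counted in both stages, −35.3 kcal/mol, was not above that of the known miRNAs. Candidates took 1.54%, 0.969% and 2.43% of the counts in L4, against 1.54%, 3.49% and 6.44% in L3, and L3 library 1 lay within the range of the L4 libraries. Of the candidates, 0 of 67 passed in either direction on either scale.

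The number of miRNAs per library followed the depth. It was 69, 72 and 87 in L4, against 40, 59 and 24 in L3 (76.0 ± 9.64 against 41.0 ± 17.5, SD, n = 3 each, two-sided exact permutation test, p = 0.1). At an equal depth of 2422 counts, the expected number with at least 5 counts was 23.2, 11.5 and 25.6 in L4, against 16.3, 20.8 and 24.0 in L3 (mean difference −0.27, two-sided exact permutation test, p = 1). At that depth L4 library 2 held the fewest and L4 library 3 the most. Of the 21 miRNAs counted in L4 library 3 alone, 15 were known and 6 candidates, whereas of the 18 counted in L4 library 2 alone, 1 was known and 17 were candidates.

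**Figure D4:**
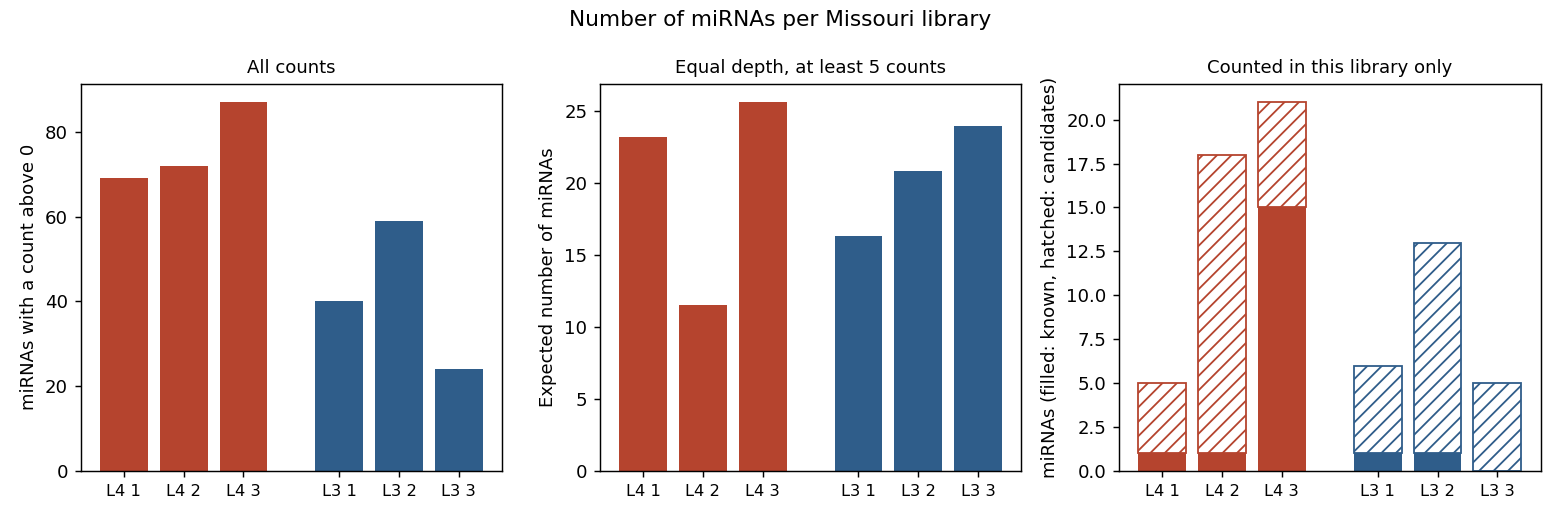
Number of miRNAs in each Missouri library (L4 red, L3 blue): with any count (left), expected with at least 5 counts at the depth of 2422 (middle), and counted in that library only (right, filled for known miRNAs and hatched for candidates). The stages separate in the left panel, where L4 libraries hold 69 to 87 and L3 libraries 24 to 59, and overlap in the middle panel.

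There were 3 miRNAs counted in all 3 L4 libraries and in no L3 library, and no miRNA was counted in all 3 L3 libraries and in no L4 library. asu-miR-83-3p_1ss20CT had normalized counts of 17.2, 13.2 and 41.6 in L4. At its share over all L4 counts, 7.69, 14.8 and 1.47 counts would be expected in the L3 libraries. bma-miR-307_1ss22GA was counted 62, 8 and 218 times in L4, with 7.07, 13.6 and 1.36 expected in L3. PC-3p-104719_25, whose sequence repeats short units, was counted 22, 7 and 5 times. Of the 63 members counted in L4 only, 3 were expected to reach 5 counts in any L3 library, asu-miR-83-3p_1ss20CT, bma-miR-307_1ss22GA and bma-miR-49, which has the miR-83 seed and was counted 46, 0 and 166 times in L4. For the others, a lower share in L3 was not detectable at this depth. The L4 counts of the 3 named came mostly from L4 library 3. In L4 library 2 their shares were 0.0157%, 0.00572% and 0%, in the order named. These lay below the share of 5 counts in every L3 library (0.0396%, 0.0206% and 0.206%), so a share as low as in that library would hardly be listed in L3. The other arm, asu-miR-83-5p_1ss15TA, was counted 0, 10 and 0 times in L4 and 0, 17 and 0 times in L3.

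Some members were listed by name as miRNAs that share sequence with vertebrates, wholly or in part. The counted forms, some with bases added at the 3′ end, were not compared with vertebrate sequences. They were therefore not assigned to the worm or to a vertebrate source. These 10 members took 12.7%, 14.5% and 11.7% of the counts in L4, against 33.2%, 26.6% and 21.2% in L3, and the list's summed share was thus lower in every L4 library. asu-let-7-5p and bma-miR-100b_R+2 belong to it and made up most of the sum. The members of the list differed in direction. On the normalized scale 6 of the 10 lay above 0 and on shares 4, against 101 and 92 of all 139, and 1 passed as lower on shares. Of the 8 counted in both stages, 4 and 2 lay above 0, against 38 and 29 of 51. ppc-miR-1_R+1 and asu-miR-9-5p, which also belong to the list, had log2 fold changes of 2.91 and 1.28 on shares (adjusted p = 0.428 and 0.628 from edgeR). On the normalized scale these were 3.94 and 2.05 (adjusted p = 0.178 and 0.434), and neither passed. bma-miR-9-5p_L-1 and ppc-miR-124_R+4 of this list were at 0 in every L3 library, so they lie above 0 through the L4 libraries alone. The part of vertebrate RNA in these values was not tested.

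In Yazoo, asu-let-7-5p was low in L4 libraries 1 and 2 but not in library 3. Its share was 0.338%, 0.129% and 3.83% in Yazoo L4, against 4.06%, 1.15% and 2.54% in Yazoo L3. The ratio to bma-lin-4 was 0.0258, 0.00460 and 0.181 in Yazoo L4, against 0.323, 0.0926 and 0.153 in Yazoo L3. The stages overlapped in both. The stage difference of the let-7 share, Missouri minus Yazoo, was −3.00 (log2, unadjusted p = 0.0150 and adjusted p = 1.00 from edgeR), so a difference between strains was not shown. That of ppc-miR-1_R+1 was 3.71 on the normalized scale (SE 1.80, adjusted p = 1.00), with 3.94 in Missouri and 0.23 in Yazoo. By normalized count, 0 of 139 passed the test of the difference between strains (0%), with 2 higher (1.44%) and 1 lower (0.719%) in Missouri at an unadjusted p under 0.05. Without Missouri L3 library 2, ppc-miR-1_R+1 passed (adjusted p = 0.0284). That library alone held ppc-miR-1_R+1 in Missouri L3, so leaving it out removed all its L3 counts, and the pass adds no support for a difference between strains. The ratio of bma-miR-100b_R+2 to bma-miR-100a_R+1, which separated the Missouri stages, was 0.403, 0.452 and 0.461 in Yazoo L4, against 0.523, 0.431 and 0.427 in Yazoo L3, and overlapped there. The difference between strains in this ratio was not tested.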

How the data were processed

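Small RNA of 18 to 30 bases from culture medium was sequenced by a provider. The authors' processing dropped poor reads, trimmed adapters, filtered out Rfam hits and matched the rest against the nematode entries of miRBase release 21. Not given in the sources used here were the aligner and the genome build. The deposited table gives expected counts (46 values were fractional) and signal columns, the normalized counts, for which the authors scaled the counts of a library by its size parameter. It also gives a score column, the predicted free energy of each hairpin, as the authors deposited it. Its 186 named lines held 4 names on 2 lines, which were summed, and 0 columns belonged to other samples. Totals were 112753 to 261543.5 counts in Missouri L4 and 2422 to 24301 in Missouri L3.

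Counts were rounded and fitted with edgeR 4.0.16 (quasi-likelihood, R 4.3.3), with 1 mean per strain and stage over 12 libraries and either the authors' parameters or library totals as effective sizes. Benjamini-Hochberg adjustment ran over the 139 members at 0.05. The scripts were tested on simulated data. Ratios, shares and numbers used exact permutation tests (20 arrangements). Expected numbers at 2422 counts are hypergeometric. SE is the absolute log2 fold change over the square root of F. Fold changes of miRNAs at 0 in a whole stage are not printed.

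Members and lists were chosen with earlier results of these data known. miRNAs were named if the study names them for Missouri, if stages did not overlap, if counted in all 6 libraries or in 1 stage only, if among the 10 smallest p, or if in a list. Alternatives were TMM, median of ratios, a minimum of 10 counts in 3 libraries, DESeq2 1.42.0, limma 3.58.1 with pseudocounts of 0.5, 1 and 10, only Missouri, a replicate block, 1 line per name, no candidates and each Missouri library left out. The ratios to miR-100a and miR-100b other than miR-81 to miR-100a, and the counts of miRNAs whose stages do not overlap without each library or with a 0 taken as 5 counts, were added once the values had been seen. Python 3.11.15 was used with scipy 1.17.1, numpy 2.4.6, matplotlib 3.10.9 and pandas 2.3.3.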

Additional observations from a re-analysis of the deposited data

How the results depend on the processing

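On the normalized scale the number of calls, 0 with the authors' parameters, was 2 with TMM (both lower, asu-let-7-5p and PC-3p-115272_22), 3, 4 and 2 with limma at pseudocounts of 1, 0.5 and 10 (all higher), and 0 to 3 with each library left out. It was 1 without L4 library 3 and 3 without L3 library 2. Those 3 were bma-miR-5360_R-1, asu-miR-81b-3p_1ss18TC and ppc-miR-1_R+1, which no other Missouri L3 library held. On shares the number, 1, was 2 with the minimum of 10 counts, 2 with 1 line per name, 0 with only the 6 Missouri libraries and 0 to 4 with each library left out (3 without L3 library 1, 4 without L3 library 2, 0 without L4 library 2 and 0 without L4 library 3). For the difference between strains it was 0 to 1 with each library left out. With the replicate number as a block, 0 miRNAs were called on either scale, and the log2 fold change of the asu-let-7-5p share was −4.01 (adjusted p = 0.0618 from edgeR). The residual correlations of libraries with the same number were 0.353, −0.078 and 0.014 over 54 miRNAs. With so few libraries these values cannot settle whether equal numbers mark the same culture, and the main tests did not take them as pairs.

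bma-miR-100b_R+2 reversed on the normalized scale, to −0.65 with TMM, −0.54 with the median of ratios, −0.19 without L3 library 3 and −0.42 without L4 library 2, and ran from −0.42 to 0.87 over the libraries left out. The log2 fold change of the bma-miR-81_R+1 share reversed to −0.056 without L4 library 3 (−0.056 to 2.12 over the libraries left out), and its ratio to bma-miR-100a_R+1 to −0.59 without L4 library 3, with −0.59 to 1.97 over the libraries left out. The difference in the number of miRNAs at equal depth, −0.27, was 7.44 with at least 1 count, 1.32 with at least 10, and −3.03 to 4.03 over the libraries left out. The miR-100 family share differed by −14.1 to −1.85 and the let-7 to lin-4 ratio by −5.09 to −4.18. The cause of these changes was not tested. asu-let-7-5p stayed below 0 in all 17 alternatives on the normalized scale and in all 11 on shares, and passed in 1 and 7 of them. Of the miRNAs counted, 21 had stages apart by normalized count and 7 on shares, and with a 0 of the lower stage taken as 5 counts these were 16 and 4. In L3 library 3, 5 counts are a share of 0.206%, and lower shares could hardly be listed there.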
